A study of Rattus norvegicus with 8 samples.

Results

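The 6 genes described here, Sox10, Erbb3, Mbp, Pmp22, S100b and Ngfr, mark Schwann cells and the myelin they make, and were taken from a table of read counts for 17337 genes as markers of the nerve supply of the periodontal ligament. They were listed by name, and all 6 were present in the table. The ligament, the connective tissue that holds the tooth root to the bone, was cut by laser micro-dissection from the cervical region of teeth of untreated rats (Rattus norvegicus) aged 28 days (P28, n = 4) or 18 days (P18, n = 4). No strain, sex, genetic change or treatment is named in the labels for either age, and the design places the onset of contact between opposing teeth between the 2 ages. The labels speak of 4 animals per age, and each library was taken as 1 animal.

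Schwann cells are the glia of peripheral nerves. They arise from the neural crest under the transcription factor SOX10, survive and divide on neuregulin from the axon, which they sense through the ErbB3 and ErbB2 receptors, and either wrap large axons in myelin or hold bundles of thin axons. Myelin is kept compact by proteins such as MBP and PMP22, whereas the p75 neurotrophin receptor encoded by Ngfr marks immature, non-myelinating and injured Schwann cells. In the periodontal ligament, trigeminal axons end in stretch-sensing Ruffini endings, whose terminal Schwann cells are known for their S100B protein. The nuclei of the sensory neurons lie outside the ligament, so ligament RNA holds the transcripts of the glia and little of those of the neurons.

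None of the 6 genes is restricted to Schwann cells. SOX10 and ErbB3 are also made by melanocytes, ErbB3 by epithelia, S100B by melanocytes, chondrocytes and fat cells, and p75 by some mesenchymal cells. Pmp22 is transcribed in many tissues without myelin, and the Mbp locus also gives golli transcripts, which start upstream of the myelin promoter and are made in neurons and leukocytes. Counts here are per gene symbol, so these transcripts were not separated.

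Promoter windows from RefSeq (build GRCr8) are shown for 2 members, Pmp22 and S100b. Both were detected in every library, as was Mbp, and Pmp22 is known to use alternative promoters. Each window runs from 250 bases before to 50 bases after the annotated start, 5′ to 3′ on the strand of the gene, with capitals at each CCAAT box (CCAAT, or ATTGG where it lies on the other strand). The Pmp22 window is chr10:48294682-48294981 on the plus strand and the S100b window is chr20:12381032-12381331 on the minus strand.
Pmp22: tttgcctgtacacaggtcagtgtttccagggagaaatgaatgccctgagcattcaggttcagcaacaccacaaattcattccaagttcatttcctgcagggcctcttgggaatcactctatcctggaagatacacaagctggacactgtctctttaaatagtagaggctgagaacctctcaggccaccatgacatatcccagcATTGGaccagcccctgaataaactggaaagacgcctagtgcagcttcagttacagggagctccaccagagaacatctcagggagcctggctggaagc
S100b: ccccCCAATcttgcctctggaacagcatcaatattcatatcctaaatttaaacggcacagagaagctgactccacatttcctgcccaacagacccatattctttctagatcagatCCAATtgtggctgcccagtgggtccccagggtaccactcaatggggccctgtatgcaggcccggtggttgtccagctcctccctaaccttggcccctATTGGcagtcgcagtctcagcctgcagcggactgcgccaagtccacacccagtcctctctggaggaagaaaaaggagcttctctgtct
The Pmp22 window held 1 CCAAT box and the S100b window 3, against at least 1 in 37.5% of the 33469 windows of 300 bases in the table. The core of SOX binding sites (ACAAAG, searched on both strands) was found in neither, and in 18.8% of all windows. Such a match is a description of letters and not of binding. Sox10, Ngfr and Erbb3 were not matched in the table, and the windows of Mbp were not used here.

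Library depth ran from 5252693 to 17803006 counts at P28 and from 10863769 to 26645656 counts at P18. P28 replicate 4 was the shallowest library and stood apart, with correlations across genes of 0.750 to 0.766 with the other P28 libraries. P18 replicate 1, the shallowest at P18, had correlations of 0.780 to 0.789 with the other P18 libraries. The highest correlations of those libraries with each other were 0.833 to 0.835. Values are given as CPM (counts scaled to library size) after scaling by trimmed mean of M values (TMM), and the limit for a gene without reads was set at 3 counts, or 0.176 to 0.624 CPM at P28 and 0.108 to 0.271 CPM at P18 in counting error only. In P28 replicates 1 to 4, 6, 6, 4 and 3 of the 6 members lay above that floor, and in P18 replicates 1 to 4, 3, 5, 5 and 6 did. Pmp22, S100b and Mbp passed it in every library, and the 3 members that dropped out were Sox10, Erbb3 and Ngfr.

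Levels of the members other than Pmp22 varied widely among animals of both ages. Of the 5 members with enough counts to be tested, 0 were called higher and 0 lower at P28 (edgeR quasi-likelihood test, Benjamini-Hochberg adjusted p under 0.05), where 0.936% of all 10472 tested genes were called, 0.516% of them higher and 0.42% lower. At an unadjusted p under 0.05 the count was also 0, against 14.5% of all tested genes, and it was 0 with the Wald test of DESeq2 (5.27% of all genes) and with limma voom (2.93%). The ages overlapped for each of the 6 members, whereas 10.4% of tested genes had ages that did not overlap. In bulk tissue, fewer cells of a type and less RNA per cell cannot be told apart.

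**Figure D1:**
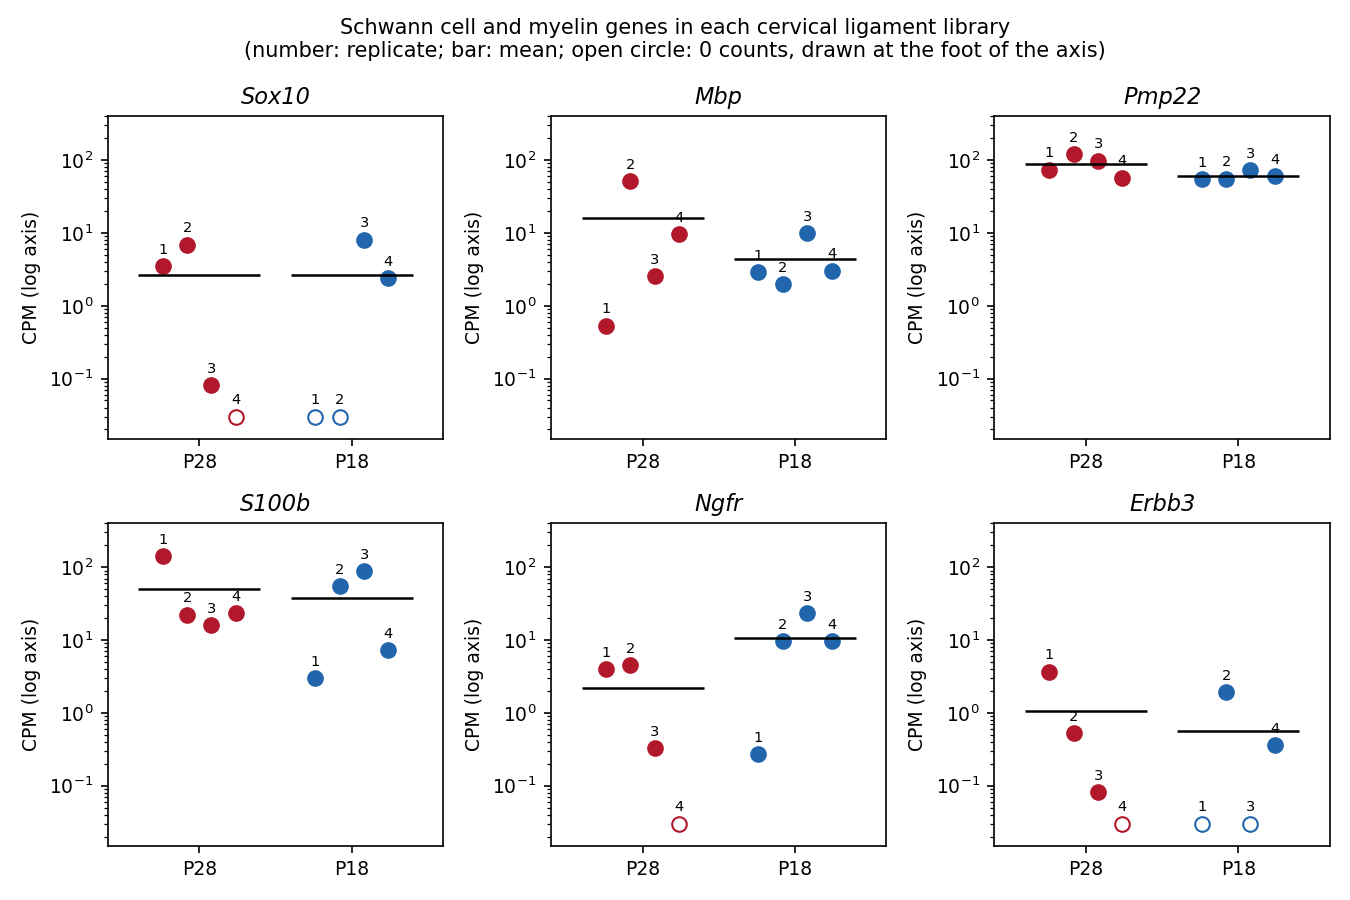
CPM of the 6 members in each of the 4 P28 (left) and 4 P18 (right) libraries on a log axis, numbered by replicate, with the mean as a bar and libraries with 0 counts drawn as open circles at the foot. Sox10 lies between 2.39 and 8.03 CPM in 4 libraries and at or under 0.0815 CPM in the other 4, whereas Pmp22 stays between 54.4 and 120 CPM.

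Sox10, the lineage transcription factor that Schwann cells keep throughout life, was either clearly present or nearly missing. It had 3.46, 6.89, 0.0815 and 0 CPM in P28 replicates 1 to 4, against 0, 0, 8.03 and 2.39 CPM in P18 replicates 1 to 4. At each age 2 libraries were high and 2 were not, with replicates 1 and 2 high at P28 and replicates 3 and 4 high at P18. The counts behind these values were 59, 66, 1 and 0 at P28 and 0, 0, 188 and 47 at P18, and 1 of the libraries with no Sox10 read was the deepest of all, P18 replicate 2. The means were 2.61 ± 3.28 CPM at P28 and 2.60 ± 3.79 CPM at P18 (SD, n = 4 each), for a log2 fold change of 0.01 ± 1.94 (SE; 95% interval -4.20 to 4.22; adjusted p = 0.999, edgeR). With an interval that wide, changes of many-fold in either direction were not excluded, and leaving out single libraries moved the value between -1.10 and 1.69.

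Erbb3, the receptor that binds neuregulin and signals through its partner ErbB2, had few reads in any library. Its counts were 62, 5, 1 and 0 in P28 replicates 1 to 4 and 0, 53, 0 and 7 in P18 replicates 1 to 4. These came to 3.64, 0.522, 0.0815 and 0 CPM at P28 and to 0, 1.91, 0 and 0.356 CPM at P18. A single library at each age, P28 replicate 1 and P18 replicate 2, held most of its reads. Erbb3 did not pass the filter on low counts. Its mean log2 CPM differed by 0.51 between P28 and P18, which did not pass an exact permutation test (2-sided p = 0.743, adjusted p = 0.743 over 4 such tests, of which the smallest possible p is 0.0286), and without P28 replicate 1 the difference was -0.46.

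Mbp, a cytoplasmic protein that holds the membranes of myelin together, was highest by far in 1 library. It had 0.529, 51.5, 2.53 and 9.57 CPM in P28 replicates 1 to 4, against 2.89, 1.98, 9.95 and 3.00 CPM in P18 replicates 1 to 4. The highest and the lowest of all 8 values were both at P28, 97.4-fold apart, and the P18 values lay between them. The log2 fold change was 1.84 ± 1.19 (95% interval -0.75 to 4.44; adjusted p = 0.522, edgeR), and without P28 replicate 2 it was -0.09. In P28 replicate 2 the markers of epithelium also stood highest. Krt17, a keratin, had 1805 CPM there, and the 7 epithelial markers summed to 5447 CPM, against 42.4 to 1016 CPM in the other P28 libraries and 23.1 to 569 CPM at P18. All 7 markers were above the floor in that library, and their part in the Mbp value was not tested. Of the 8 markers of oligodendrocytes, the myelinating glia of the brain, 4 (Mobp, Opalin, Olig2 and Nkx2-2) had 0 counts in all 8 libraries, and the list summed to 6.24 to 16.7 CPM at P28 and 7.13 to 15.7 CPM at P18.

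Pmp22, a membrane protein of compact myelin that many other cells also make, was the steadiest member. It had 73.2, 120, 98.3 and 57.0 CPM in P28 replicates 1 to 4, against 54.4, 55.9, 72.3 and 59.9 CPM in P18 replicates 1 to 4. P28 replicates 2 and 3 lay well above every P18 library, replicate 1 lay just above them, and replicate 4 lay among them. The means were 87.3 ± 27.9 CPM at P28 and 60.6 ± 8.10 CPM at P18 (SD, n = 4 each). The log2 fold change was 0.53 ± 0.28 (95% interval -0.08 to 1.13; adjusted p = 0.419, edgeR), and it stayed between 0.33 and 0.68 with each library left out in turn, never past the threshold.

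S100b encodes a calcium-binding protein of Schwann cells, used in histology to trace periodontal nerve endings. It had 141, 22.1, 15.9 and 23.5 CPM in P28 replicates 1 to 4, against 2.98, 54.9, 88.3 and 7.28 CPM in P18 replicates 1 to 4. A single P28 library held the highest value, the other 3 P28 libraries were close to each other, and the P18 libraries spread 29.6-fold with no common level. The log2 fold change was 0.40 ± 0.94 (95% interval -1.63 to 2.44; adjusted p = 0.892, edgeR), and without P28 replicate 1 it was -0.90. S100b overlaps Dip2a in RefSeq, and the strand setting of the counting is not given in the sources used here, so reads shared by the 2 genes are uncertain. Dip2a did not follow S100b, with 1.17, 42.9, 2.85 and 0 CPM at P28 and 2.71, 22.4, 12.4 and 23.1 CPM at P18.

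Ngfr, the p75 receptor, had a negative fold change in the edgeR test. It had 3.99, 4.49, 0.326 and 0 CPM in P28 replicates 1 to 4, against 0.271, 9.65, 23.3 and 9.67 CPM in P18 replicates 1 to 4. In all, 3 of the P18 libraries exceeded every P28 library, but P18 replicate 1, with 3 counts, lay below all but 1 of them. The means were 2.20 ± 2.37 CPM at P28 and 10.7 ± 9.47 CPM at P18 (SD, n = 4 each), and the log2 fold change was -2.26 ± 1.43 (95% interval -5.38 to 0.85; adjusted p = 0.514, edgeR). The value remained between -2.85 and -1.57 with single libraries left out, without passing the threshold.

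**Figure D2:**
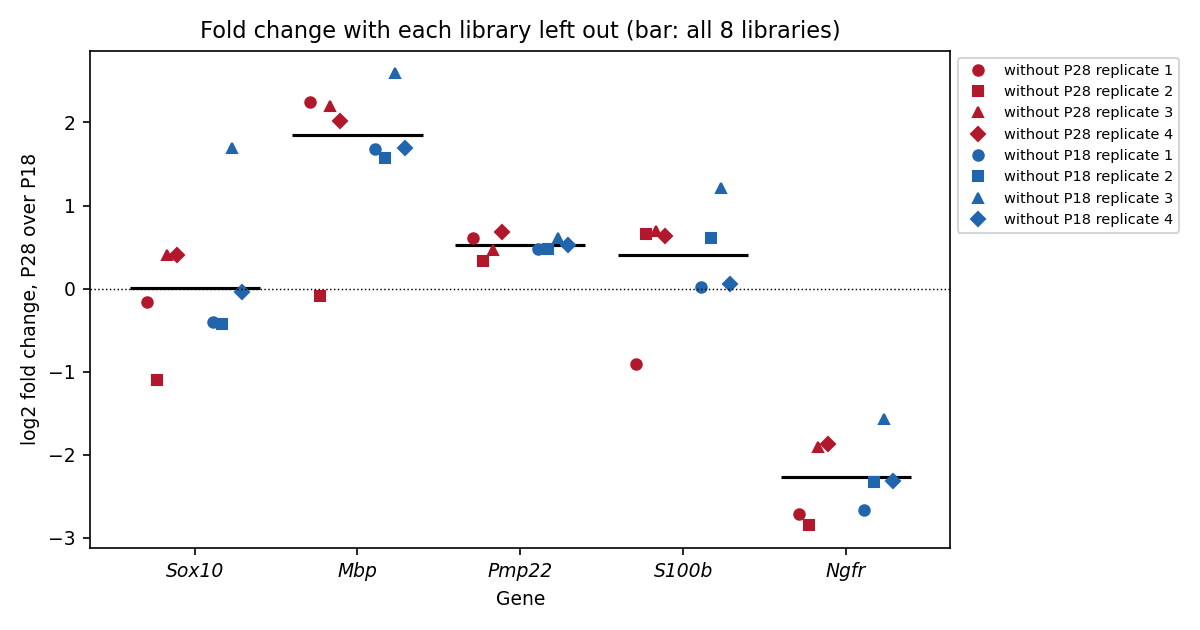
Log2 fold change, P28 over P18, of the 5 tested members with each library left out in turn (red: a P28 library left out; blue: a P18 library left out), with the value from all 8 libraries as a bar. Sox10 spans -1.10 to 1.69, Mbp and S100b each drop below 0 when 1 P28 library is left out, and Ngfr stays below 0 throughout.

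The members also differed in how much they varied among animals of 1 age. The within-age SD of log2 CPM was 2.98 for Sox10, a spread exceeded by 1.41% of the tested genes. It was 2.56 for Ngfr (exceeded by 4.68%), 2.02 for Mbp (13.3%) and 1.91 for S100b (15.4%). Pmp22 had 0.36, less than the median of 0.67 over all tested genes and exceeded by 81.2% of them. Erbb3, which was not tested, had 2.04. The ranks are over tested genes of every level, and no genes of like level were set beside the members. Sox10, Ngfr and Erbb3 had libraries at or below the floor of 3 counts, so their spread rests partly on values near 0.

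Within each library, 2 of the members were also compared as the log2 ratio of Mbp to Ngfr (counts, with 0.5 added to each). It was -2.85, 3.50, 2.81 and 6.54 in P28 replicates 1 to 4 and 3.22, -2.27, -1.22 and -1.68 in P18 replicates 1 to 4. In all, 3 of the P28 libraries and 1 of the P18 libraries had more Mbp than Ngfr, so 1 library at each age went against the rest. P28 replicate 4, the shallowest library, had 0 Ngfr counts, so the size of its ratio depends on the 0.5 added. Ngfr had only 4 counts in P28 replicate 3 and 3 in P18 replicate 1. Sox10 had at most 1 count in P28 replicates 3 and 4 and in P18 replicates 1 and 2. Other cells also make both genes, so the ratio cannot be read as myelinating against immature Schwann cells. The difference of 2.99 between the means did not pass an exact permutation test (2-sided p = 0.343, adjusted p = 0.457 over 4 such tests). It ranged from 1.64 to 4.77 with single libraries left out.

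The levels of the members were also set against each other across the 8 libraries. The highest Pearson correlation of log2 CPM was that of Sox10 and Ngfr (r = 0.70, Spearman rho 0.69), and the lowest that of Mbp and Erbb3 (r = -0.45, rho -0.51). These describe 8 libraries of unequal depth and carry no test, and those with Sox10 reflect its split into a high and a low set of libraries. Sox2, a factor of immature Schwann cells, had 0.0587, 16.3, 0 and 0 CPM at P28 and 0, 0, 5.34 and 1.17 CPM at P18 (r = 0.84 with Sox10). Its reads lay in libraries with Sox10 reads, and Sox2 was chosen for this after its values were seen. P28 replicate 1, with 59 counts of Sox10, had only 1 count of Sox2. The highest Sox2 value was in P28 replicate 2, where epithelial markers also stood highest, and their part in it was not tested.

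Among the tested genes with a mean log2 CPM of at least 4, the pattern most like that of Sox10 was that of Notch3, a Notch receptor known from mural cells of vessels, with r = 0.977 over the 8 libraries. Notch3 had 65.6, 55.5, 10.3 and 5.62 CPM in P28 replicates 1 to 4 and 7.50, 7.71, 62.0 and 55.7 CPM in P18 replicates 1 to 4, so the 4 libraries with clear Sox10 were the 4 with high Notch3. The next were Ctbp2 (r = 0.966) and Necap1 (r = 0.947). The genes most like Mbp were Vps53 (0.90), Fli1 (0.892) and Atp1b3 (0.890), and those most like Pmp22 were Abcc5 (0.977), Arl4a (0.970) and Mcam (0.958). S100b was followed most closely by Rnpc3 (0.931), Tap1 (0.927) and Uggt1 (0.925), Ngfr by Hibadh (0.989), Fam214a (0.969) and Epas1 (0.957), and Erbb3 by Pelo (0.921), Pspc1 (0.907) and Safb (0.898). With 8 libraries and so many genes compared, high values of r arise for any gene, and these names are a description only.

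The wider nerve was read from 8 lists of myelin, Schwann cell, axon and nerve sheath genes, with 102 genes in the table, of which 56 were tested. Of these, 0 were called higher and 0 lower by edgeR, 7 had an unadjusted p under 0.05 (12.5%, against 14.5% of all tested genes). DESeq2 called 2 of the 56, where it called 5.27% of all tested genes, and voom called 1, where it called 2.93%. The median log2 fold change was -0.13, against 0.01 over all tested genes, with 27 genes above 0 and 29 below. The ages did not overlap for 3 of the 56 genes, Itgb4, Etv1 and Maged1, against 10.4% of all tested genes, so the lists as a whole did not exceed that background. A further 11 genes had 0 counts in all 8 libraries, among them the Schwann cell cadherin Cdh19, the lipid-binding Fabp7 of Schwann cell precursors and the nociceptor sodium channels Scn9a and Scn10a.

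**Figure D3:**
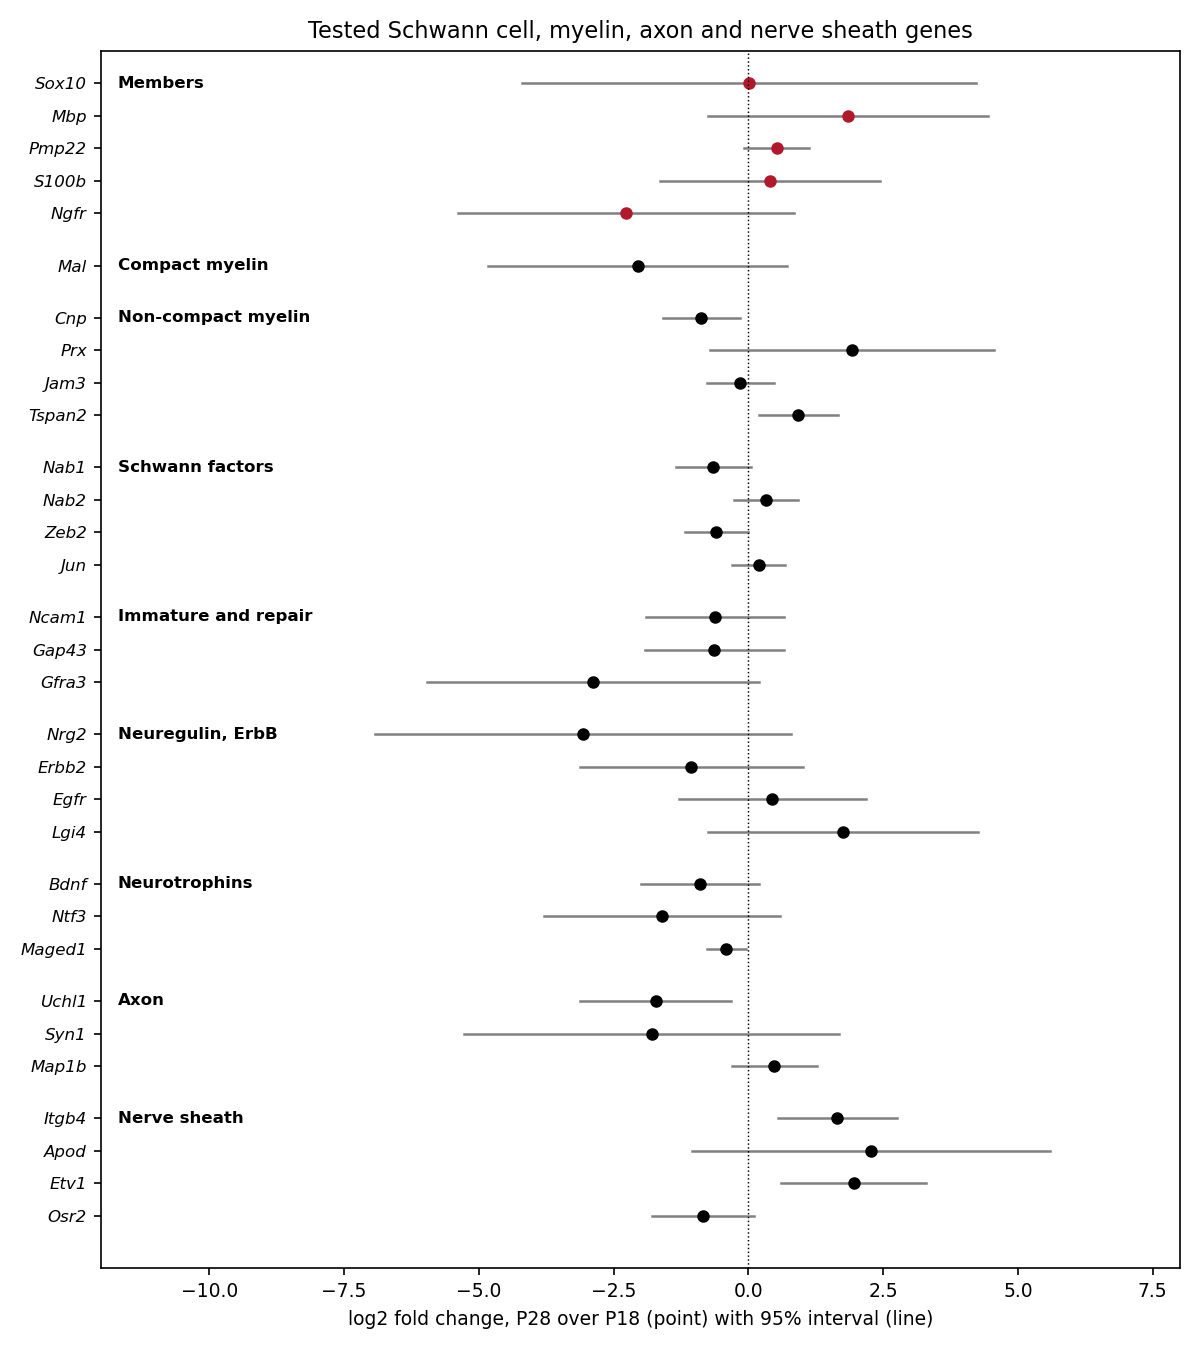
Log2 fold change, P28 over P18, with its 95% interval for the 5 tested members (red) and for tested genes named from each nerve list (black). The interval of every member spans 0. The intervals of Itgb4, Etv1 and Tspan2 lie wholly above 0, and those of Uchl1, Cnp, Zeb2 and Maged1 wholly below 0. None of these genes passed adjustment over all 10472 genes.

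Among the 7 listed genes of compact myelin, 5 were tested, with 3 fold changes above 0 and 2 below (median 0.53) and 0 called. Mal, a membrane protein of myelin and of epithelia, had 0.117, 5.54, 1.06 and 0.208 CPM at P28 and 10.2, 8.07, 4.65 and 6.06 CPM at P18. Its log2 fold change was -2.06 ± 1.27 (adjusted p = 0.504, edgeR), and the ages overlapped through P28 replicate 2.

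For the proteins of non-compact myelin, nodes and myelin lipids, 5 of 17 genes were tested and 0 called, with a median log2 fold change of 0.24. Tspan2, a tetraspanin of myelinating glia, had 194, 285, 488 and 311 CPM at P28 and 97.9, 133, 170 and 274 CPM at P18 (log2 fold change 0.92 ± 0.34, adjusted p = 0.223, edgeR). Cnp, an enzyme of myelin cytoplasm, had 55.6, 25.6, 57.6 and 30.4 CPM at P28 and 56.0, 80.7, 86.6 and 87.5 CPM at P18 (log2 fold change -0.87 ± 0.33, adjusted p = 0.239, edgeR). In both cases the ages met in a single P18 library, replicate 4 for Tspan2 and replicate 1 for Cnp. Prx, a scaffold of the myelin sheath, had a log2 fold change of 1.92 ± 1.21 that did not pass the test. Gldn, which helps gather sodium channels at nodes and was picked after its values were seen, had 7.40, 10.8, 0.489 and 0 CPM at P28, against 0.181, 0.432, 0.0854 and 0.0509 CPM at P18, and was too low to be tested by edgeR (exact permutation p = 0.229, adjusted p = 0.457 over 4 tests, 2-sided).

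Egr2 encodes KROX20, the factor that turns on the myelin programme, and is also an immediate early gene. It was detected in P28 libraries alone, with 208, 21, 47 and 0 counts in P28 replicates 1 to 4 (12.2, 2.19, 3.83 and 0 CPM) against 0 counts in each P18 library. P28 replicate 1 held most of these counts, and the ages overlapped at 0 through P28 replicate 4. It did not pass the filter on low counts, and an exact permutation test gave p = 0.143 (2-sided, adjusted p = 0.457 over 4 tests); in an edgeR fit without the filter its adjusted p was 0.122. Of the 13 listed Schwann lineage factors, Sox10 included, 8 were tested and 0 were called, and the median log2 fold change was -0.26. Nab1 and Nab2, which bind EGR factors, had log2 fold changes of -0.65 ± 0.32 and 0.33 ± 0.27, Zeb2, a repressor needed for myelination, -0.59 ± 0.27, and Jun, a driver of the repair state, 0.19 ± 0.22, none of which passed the test.

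**Figure D4:**
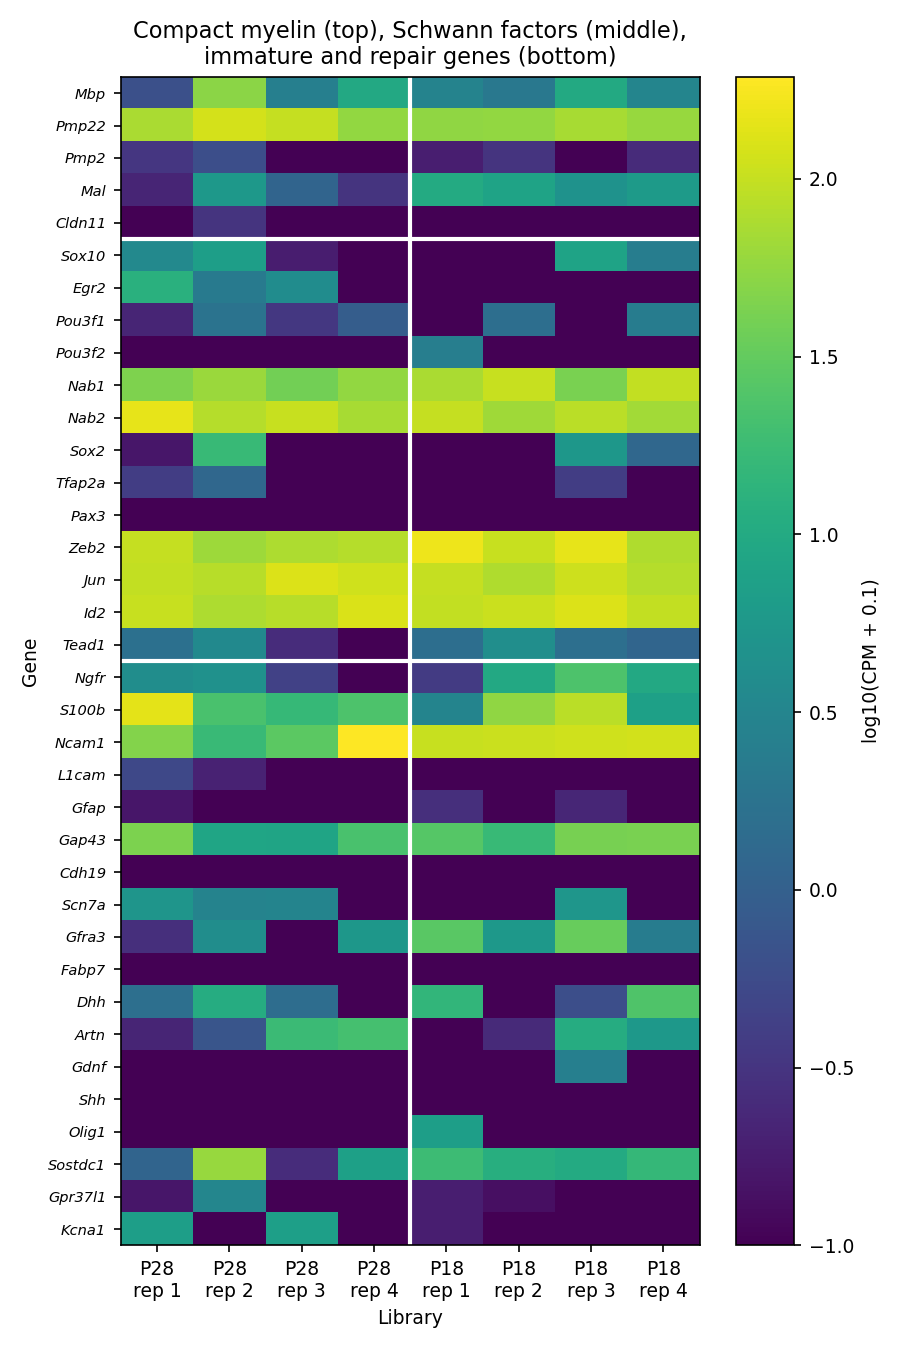
Log10 of CPM plus 0.1 (colour) of listed genes of compact myelin (top), Schwann lineage factors (middle) and immature or repair Schwann cells (bottom) in the 4 P28 (left) and 4 P18 (right) libraries. Egr2 is at 0 in every P18 library. Sox10 is brighter in P28 replicates 1 and 2 and P18 replicates 3 and 4 than in its other libraries, and those 4 values run from 2.39 to 8.03 CPM.

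Genes of immature, non-myelinating and repair Schwann cells had a median log2 fold change of -0.62, with 9 of 18 tested, 4 above 0, 5 below and 0 called. Gfra3, the receptor for artemin, had 0.176, 3.97, 0 and 5.41 CPM in P28 replicates 1 to 4, against 28.1, 5.58, 33 and 2.29 CPM in P18 replicates 1 to 4 (log2 fold change -2.88 ± 1.41, adjusted p = 0.380, edgeR). Ncam1, an adhesion molecule of non-myelinating Schwann cells and of muscle, had 46.9, 17.0, 28.6 and 194 CPM at P28 and 103, 106, 112 and 116 CPM at P18. The P18 libraries were nearly equal, and 3 of the 4 P28 libraries lay below them. With all libraries its log2 fold change was -0.62 ± 0.59 (adjusted p = 0.686, edgeR), and P28 replicate 4 decided that call: without it, the value was -1.82 with an adjusted p of 0.0285, and voom with sample weights gave -1.60 with an adjusted p of 0.0410. Gap43, a growth-associated protein of axons and repair Schwann cells, had a log2 fold change of -0.63 ± 0.59, which did not pass the test.

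Neuregulin genes and their receptors did not separate the ages. Nrg1, the main axonal signal to Schwann cells, had 7.73 CPM in P28 replicate 2 and 0 in the other P28 libraries, against 0.0427 CPM in P18 replicate 3 and 0 in the other P18 libraries. Erbb2, the signalling partner of ErbB3, had 5.99, 11.6, 2.20 and 1.46 CPM at P28 and 2.53, 11.9, 10.3 and 19.7 CPM at P18 (log2 fold change -1.06 ± 0.95, adjusted p = 0.668, edgeR). Of the 10 listed genes, 7 were tested, with 4 fold changes above 0, 3 below and 0 called.

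In the list of neurotrophins, their receptors and related genes, 11 of 13 genes were tested and 0 called. It had 3 fold changes above 0 and 8 below, with a median of -0.41. Bdnf, which mechanosensory neurons respond to, had a log2 fold change of -0.90 ± 0.50, and Ntf3, neurotrophin 3, had -1.61 ± 1.01, and neither passed the test. Maged1, which encodes a protein that binds the p75 receptor, had 571, 466, 524 and 558 CPM at P28 and 672, 798, 726 and 621 CPM at P18. Every P28 library lay below every P18 library, with a log2 fold change of -0.41 ± 0.17 that did not pass adjustment over all genes (adjusted p = 0.277, edgeR).

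Axonal and neuronal transcripts were sparse: 6 of 18 listed genes were tested, 4 were at 0 in every library, and 0 were called. Nefl, the light neurofilament chain, had 0.940 CPM in P28 replicate 2 and 0 in the other P28 libraries, against 0.181 CPM in P18 replicate 1 and 0 in the other P18 libraries. Uchl1, a neuronal ubiquitin hydrolase that other cells also make, had 9.22, 4.07, 3.10 and 18.5 CPM at P28 and 35.5, 28.4, 18.4 and 32.0 CPM at P18. The ages met at P28 replicate 4 and P18 replicate 3, and the log2 fold change was -1.72 ± 0.64 (adjusted p = 0.232, edgeR).

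Of the genes of the perineurial and endoneurial sheath, 7 of 8 were tested, 5 had a fold change above 0, the median was 0.41 and 0 were called by edgeR. Itgb4, an integrin of perineurial cells, Schwann cells and epithelial hemidesmosomes, had 71.3, 121, 173 and 52.8 CPM at P28, against 34.1, 48.0, 43.3 and 8.20 CPM at P18. Etv1, an ETS-family factor, had 54.4, 35.9, 13.8 and 16.6 CPM at P28, against 9.13, 4.65, 12.1 and 5.24 CPM at P18. Neither gene overlapped between ages. The log2 fold changes were 1.65 ± 0.51 for Itgb4 (adjusted p = 0.147, edgeR) and 1.96 ± 0.62 for Etv1 (adjusted p = 0.158, edgeR), and the Wald test of DESeq2 called both (adjusted p = 0.0272 for Itgb4 and 0.0305 for Etv1). Of the 7 epithelial markers, 6 were tested, with 6 fold changes above 0, a median of 2.92 and 0 called. P28 replicate 2 had by far the highest sum of these markers, and their part in the Itgb4 value was not tested.

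Markers of the other cells that make these genes were examined beside them. Of 8 melanocyte markers, 1 of 3 tested was called: Mlana rose to 102, 34.4, 121 and 61.0 CPM in P28 replicates 1 to 4, against 0.813, 2.13, 2.48 and 3.56 CPM in P18 replicates 1 to 4 (log2 fold change 5.13 ± 0.57, adjusted p = 0.00446, edgeR). The 3 tested fold changes were all above 0, with a median of 0.42, so the rise of Mlana was not that of the list. Kit, too low to be tested, had 0.411, 0, 0 and 0.208 CPM at P28, against 3.62, 7.75, 11.3 and 0.0509 CPM at P18. Tyr, Tyrp1 and Slc45a2, which make and package melanin, had 0 counts in all 8 libraries. Mlana was high in P28 libraries with and without Sox10. The 8 chondrocyte markers, which bear on S100b, summed to 90.5 to 244 CPM at P28 and 57.6 to 182 CPM at P18, and the 7 adipocyte markers to 51.0 to 133 CPM at P28 and 104 to 191 CPM at P18, with 0 genes called in either list. The 8 leukocyte markers, which bear on golli transcripts of Mbp, summed to 307 to 1540 CPM at P28 and 603 to 1054 CPM at P18, and their part in the Mbp values was not tested. Pericyte and mural markers, 8 of 8 above the floor in every library, summed to 467 to 1103 CPM at P28 and 603 to 1029 CPM at P18, with 0 genes called. The 7 markers of the enamel organ, the dental epithelium that forms enamel, summed to 5.62 to 638 CPM at P28 and 15.1 to 4858 CPM at P18, highest in P18 replicate 1. Of its 4 tested genes, 0 were called higher and 2 lower: the enamel matrix gene Ambn fell (log2 fold change -8.51 ± 1.40, adjusted p = 0.0204, edgeR), as did Amtn of the enamel surface (log2 fold change -10.01 ± 1.59, adjusted p = 0.0188, edgeR). The enamel organ list and the keratin-bearing epithelial list given above thus had tested fold changes of opposite sign. The epithelial sum was 5447 CPM in P28 replicate 2. In the other P28 libraries it was 42.4 to 1016 CPM, which overlapped the 23.1 to 569 CPM at P18. The part of both lists in the values of Mbp and Erbb3 was not tested. The 7 endothelial markers summed to 1128 to 1768 CPM at P28 and 858 to 1230 CPM at P18, and the 7 skeletal muscle markers to 2.94 to 39.7 CPM at P28 and 3.31 to 8.03 CPM at P18, with 0 genes called in either list. Fibroblasts of the ligament were marked in all libraries, with 7 of 8 markers above the floor and sums of 134962 to 190238 CPM at P28 and 92303 to 134991 CPM at P18; of the 7 tested, 6 had a fold change above 0 (median 0.44, 0 called higher), and Tnmd, a membrane protein of tendon and ligament cells, fell (log2 fold change -2.43 ± 0.29, adjusted p = 0.00608, edgeR).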

How the data were processed

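Counts of reads per gene symbol were deposited by the authors for 8 cervical ligament libraries, made with a low-input SMARTer kit per the labels. The submitters' processing notes name the tools HTSeq 0.9.1, STAR 2.5.3a and edgeR 3.16.5 and the genome build rn6. What each tool did, which annotation was counted and whether strand was used are not given in these sources. A further 40 columns of other samples and a normalized table were not used.

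From these counts, 10472 genes passed filterByExpr (minimum count 10, grouped by age) in edgeR 4.0.16 under R 4.3.3. They entered a 2-sided quasi-likelihood test with TMM scaling and no term but age. Calls needed a Benjamini-Hochberg adjusted p under 0.05 over all of these. Fold changes are P28 over P18 ± SE. SEs were obtained by dividing each absolute fold change by the square root of F. A prior count of 2 went into log2 CPM. Genes that failed the filter, and the Mbp to Ngfr ratio, were compared by exact permutation tests (2-sided). The biological coefficient of variation was 0.704. The fit was also run on simulated counts, and no result given here rests on that run.

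The members, the 19 gene lists (199 entries) and the tests were chosen with earlier results of these data known. Entries were matched by symbol (185) or RefSeq synonym (2), and 12 were not analysed here. Text names were set by rule. They are the members; from each nerve list, any called gene and up to 4 with the lowest p, plus Egr2, Ncam1, Nrg1, Erbb2 and Nefl, whatever their result; the 3 genes most correlated with each member; and, from other cell lists, called genes and up to 2 of the most abundant. Markers at 0 and other names are descriptions. Some genes that the rule names are counted in their lists but not reported here. Alternatives were DESeq2 1.42.0 size factors and its Wald test on the genes that passed the edgeR filter, upper-quartile scaling, voom with quality weights (limma 3.58.1), other filters, other pseudocounts, the subject number as a block, and leaving out each library. P-values measure the spread between these libraries. Reads carry no molecular identifiers in the labels, and limits from counts cover counting error only.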

Additional observations from a re-analysis of the deposited data

Results flagged for a closer look

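In groups of 4 libraries, 1 library lay far from the other 3 on the log2 CPM scale for 4 named genes and for none of the 6 members. For normally distributed values, chance alone sets such a mark on about 1 in 20 groups. The other P28 libraries had 0 counts of Nrg1 and of Nefl, so any higher value would be marked and that rate does not apply to them. Map1b, a microtubule protein of axons, had 108 CPM in P28 replicate 3, against 74.2 to 76.8 CPM in the other P28 libraries. Nrg1 had 7.73 CPM in P28 replicate 2 and 0 in the other P28 libraries. Nefl had 0.940 CPM in P28 replicate 2, against 0 in the other P28 libraries. Jam3, a junction protein of Schwann cells, had 94.9 CPM in P18 replicate 4, against 120 to 121 CPM in the other P18 libraries.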

How the results depend on the processing

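The count of called members was 0 under every alternative run. Fold changes of members changed sign without passing the threshold: Sox10 was -0.0068 without the filter and -0.0019 with the DESeq2 Wald test, and Mbp was -0.018 with voom. With single libraries left out, the log2 fold change ran from -1.10 to 1.69 for Sox10, -0.094 to 2.59 for Mbp, -0.90 to 1.21 for S100b, -0.46 to 1.35 for Erbb3 (mean log2 CPM difference) and -0.51 to 0.0054 for Jam3. Over all genes, 54 were called higher and 44 lower; with DESeq2 the Wald calls were 290 higher and 262 lower, with voom 175 and 132, and in fits without 1 library 4 to 110 higher and 5 to 105 lower, fewest without P18 replicate 2 and most without P28 replicate 4. The causes were not tested.

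With the subject number as a replicate block, 16 genes were called higher and 10 lower. Libraries with the same number did not deviate together across the tested genes (correlations -0.02 to 0.00189). These correlations cannot settle whether the numbers pair the libraries in some other way.

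A count of 0 bounds a gene only at 0.108 to 0.624 CPM, by library; Sox10 and Erbb3 also had 0 counts in deep P18 libraries. Intervals of the 5 tested members span 0 and allow changes beyond 2-fold in at least 1 direction.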
